A study of Mus musculus with 12 samples.

Results

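The 7 genes described here are known for proteins that act on bacteria or their surface and are made largely by the intestinal epithelium, although Pla2g2a carries a frameshift in C57BL/6 mice. They are Lypd8, Mptx1, Mptx2, Pla2g2a, Itln1, Dmbt1 and Ang4, taken by symbol from the 54532 genes of the deposited table. Mptx1, Lypd8 and Pla2g2a were partly selected on their measured log2 fold changes between these groups, so their values are a description and carry no test. Itln1, Dmbt1, Ang4 and Mptx2 were not picked for their change, although all 7 were chosen with earlier results of these data known.

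RNA was sequenced from total colon of adult mice on a C57BL/6N background, with 3 libraries in each of 4 groups. Tmem173iΔmye mice carry loxP-flanked Tmem173, the gene of the DNA-sensing adaptor STING, and a Cre that tamoxifen switches on and that the myeloid gene Lyz2 drives, whereas the 7 genes are known mainly from the epithelium. Tmem173fl/fl mice carry the floxed alleles without the Cre, and all groups received 5 tamoxifen injections. Colitis was induced in 1 group of each genotype with dextran sulfate sodium (DSS) in the drinking water for 7 days, and the other groups received none. The comparisons ask what DSS did to each gene in either genotype and whether the genotypes differed with and without DSS.

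The lumen of the colon is kept away from the epithelium by mucus and by secreted proteins that bind, trap or kill microbes. Lypd8 is a membrane-anchored and shed glycoprotein of surface colonocytes that binds flagella, and Dmbt1 is a scavenger receptor cysteine-rich mucin-like glycoprotein that agglutinates bacteria. Mptx1 and Mptx2 are mucosal pentraxins, relatives of serum amyloid P, and Itln1 is an intelectin, a lectin for microbial glycans. Pla2g2a is a secreted phospholipase that cleaves the membrane of gram-positive bacteria, and Ang4 is a ribonuclease of the angiogenin family with bactericidal activity. In the small intestine several of them are products of Paneth or goblet cells. The annotation of the deposited table lists Pla2g2a as a polymorphic pseudogene, so its transcript level says nothing about a protein.

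Mptx1 and Mptx2 are close copies with very unlike counts, and the 250 bases before their RefSeq starts are shown for that reason. Capitals mark runs of at least 12 bases that are identical in the alignment of the 2 windows (GRCm38.p6, RefSeq, 5′ to 3′). The Mptx1 window is chr1:174330268-174330517 on the plus strand and the Mptx2 window is chr1:173277757-173278006 on the minus strand.
Mptx1: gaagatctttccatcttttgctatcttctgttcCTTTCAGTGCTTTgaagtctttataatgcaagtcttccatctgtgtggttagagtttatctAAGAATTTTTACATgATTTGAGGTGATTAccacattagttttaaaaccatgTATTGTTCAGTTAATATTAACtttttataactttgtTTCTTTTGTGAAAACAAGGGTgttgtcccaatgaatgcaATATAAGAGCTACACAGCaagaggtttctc
Mptx2: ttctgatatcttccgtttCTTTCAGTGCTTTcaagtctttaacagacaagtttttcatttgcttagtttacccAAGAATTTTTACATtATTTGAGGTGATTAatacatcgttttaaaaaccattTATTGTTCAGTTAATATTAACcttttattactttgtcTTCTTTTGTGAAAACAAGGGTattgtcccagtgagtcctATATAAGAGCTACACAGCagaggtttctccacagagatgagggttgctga
The windows were identical at 202 of 273 alignment columns, or 74.0%, and 101 bases of each lay in the capital runs. Columns with a gap count as not identical. The 2 windows are also offset, since the Mptx2 window starts at 173277757 and the deposited gene reaches 173277777. The 74.0% is therefore not the share of identical bases among those aligned to each other. Their GENCODE transcripts of 799 and 794 bases were identical at 736 of 801 columns, or 91.9%, with a longest shared run of 112 bases. The Mptx1 gene lies at chr1:174330518-174332873 on the plus strand and Mptx2 at chr1:173274382-173277777 on the minus strand, so both are on chromosome 1. Both are protein coding in the annotation.

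Mptx1, Pla2g2a, Ang4 and Itln1 were each highest in replicate 1 of both untreated groups, and the Ang4 and Itln1 windows are shown to set beside that of Mptx1. Capitals mark matches to the motifs searched on both strands, which were the letters TATAAA of the TATA box, the letters AGATAA bound by GATA factors, the letters TTTATNG bound by CDX, the letters CAAAGTCCA bound by HNF4, the letters TTCNNNGAA bound by STAT factors, the letters TTGCNNAA bound by C/EBP, and the NF-kB motif. The Ang4 window is chr14:51773591-51773840 and the Itln1 window is chr1:171535295-171535544, both on the minus strand.
Ang4: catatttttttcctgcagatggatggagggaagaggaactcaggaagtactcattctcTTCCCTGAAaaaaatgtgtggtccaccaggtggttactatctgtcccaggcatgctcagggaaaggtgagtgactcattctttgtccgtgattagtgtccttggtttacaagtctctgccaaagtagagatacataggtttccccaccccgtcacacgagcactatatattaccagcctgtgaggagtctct
Itln1: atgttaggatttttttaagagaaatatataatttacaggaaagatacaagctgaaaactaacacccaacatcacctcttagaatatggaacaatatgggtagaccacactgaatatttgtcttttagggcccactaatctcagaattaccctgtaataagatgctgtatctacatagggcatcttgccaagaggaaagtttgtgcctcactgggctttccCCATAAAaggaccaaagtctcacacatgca
The Ang4 window held 1 match, to the STAT motif, which 7.02% of 32841 windows of the same length held. The Itln1 window held 1 match, to the CDX motif on the opposite strand, which 9.81% of windows held. The Mptx2 window held the CDX letters once, and the Mptx1 window held none of them but held the TATAAA letters at 2 places on the opposite strand (12.4% of windows) and AGATAA once (9.99%). The 2 Lypd8 windows of the table held 1 AGATAA match between them. Overlaps between motifs did not occur in these windows. The table held 5 of the 7 genes, and Pla2g2a and Dmbt1 were not among them.

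The libraries held 13823237 to 18718915 counts, so depth differed little. Tmem173 had a mean of 41.35 ± 3.30 CPM in Tmem173fl/fl colons with DSS, against 34.22 ± 12.33 CPM in Tmem173iΔmye colons with DSS (SD, n = 3), with a log2 fold change of -0.28 ± 0.26 (SE, edgeR adjusted p 0.602), so its loss was not detectable in whole colon. CPM are counts relative to library size, after scaling by the trimmed mean of M-values. Replicate 5 of the colitic Tmem173iΔmye group stood apart from the other colitic libraries. On the first principal component (57.5% of the variance) it was at -29.2, nearest the untreated libraries at -61.4 to -37.1, while the other colitic libraries lay at 12.7 to 98.7. On the second (10.7%) it was at -78.1 and the others at -17.6 to 22.7. The log2 fold changes of Lypd8, Mptx1 and Pla2g2a that include it are given with and without it. It was also 1 of 3 libraries with Xist above the Y-linked genes, the others being replicate 3 of each untreated group. The summed CPM of 12 epithelial markers, among them Epcam, Cdh1 and Krt8, lay at 13400 to 16877 in untreated Tmem173fl/fl, 14166 to 16862 in untreated Tmem173iΔmye, 5005 to 8518 in colitic Tmem173fl/fl and 10679 to 12559 in colitic Tmem173iΔmye colons. All 12 epithelial markers had reads in every group. In bulk tissue, fewer epithelial cells and less RNA per cell cannot be told apart.

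Levels between genes are compared as FPKM, the count scaled to transcript length and library size in the deposited table. In untreated Tmem173fl/fl colons the order was Lypd8 at 7191 ± 646, Mptx1 at 831 ± 751, Dmbt1 at 600 ± 252, Ang4 at 99.9 ± 81.9, Pla2g2a at 5.84 ± 2.08, Itln1 at 1.27 ± 0.799 and Mptx2 at 0.139 ± 0.123 FPKM (SD, n = 3). Mptx1 and Dmbt1 overlapped and had no order beyond their spread. The other neighbours in this order did not overlap. In untreated Tmem173iΔmye colons Mptx1 overlapped both Dmbt1 and Ang4, which ran from 14.5 to 756 FPKM, and the ranges of Pla2g2a and Itln1 overlapped as well. In colitic Tmem173fl/fl colons Lypd8 and Dmbt1 led, at 2447 ± 521 and 1186 ± 266 FPKM, without overlap, while Ang4 was at 2.36 ± 2.18 and Pla2g2a, Mptx1, Itln1 and Mptx2 each had a mean under 0.5 FPKM. Lypd8 and Dmbt1 also led in colitic Tmem173iΔmye colons, at 7102 ± 1486 and 1659 ± 420 FPKM. There Mptx1 was at 61.6 ± 96.1, Pla2g2a at 17.4 ± 14.1, Ang4 at 1.13 ± 1.39, Itln1 at 0.446 ± 0.0876 and Mptx2 at 0.0515 ± 0.0892 FPKM.

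**Figure D1:**
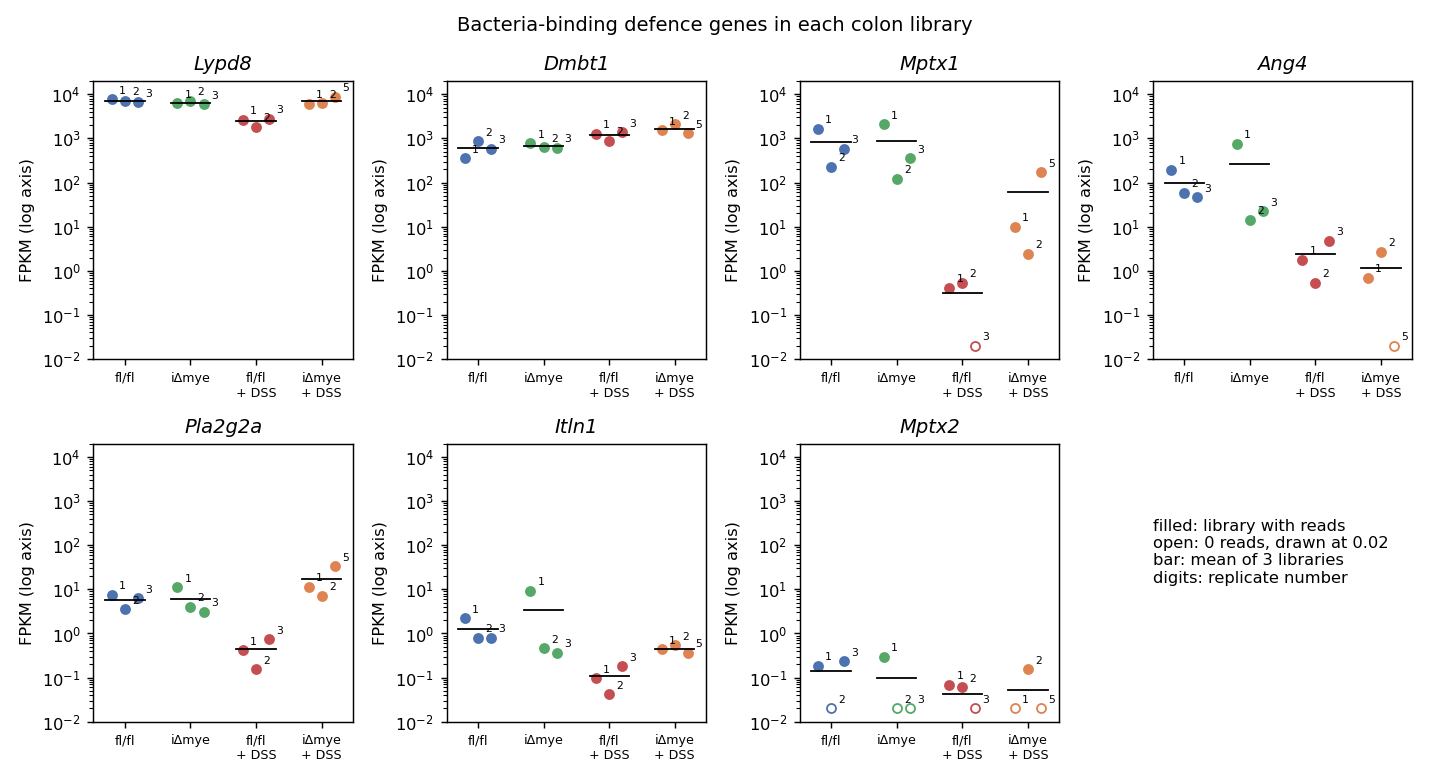
FPKM (log axis) of each gene in the 12 libraries, by group, with the mean of 3 libraries as a bar and the replicate number beside each point. Open points had 0 reads and are drawn at 0.02. Lypd8 was the most abundant of the 7 in each library, from 1853 to 8813 FPKM, and Mptx2 stayed at or below 0.299 FPKM.

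Lypd8 (ENSMUSG00000013643, chr11:58379043-58390728, plus strand) was among the most abundant transcripts of the colon. Its level in untreated Tmem173fl/fl colons was 10385, 9434 and 8601 CPM, and in untreated Tmem173iΔmye colons 8261, 9472 and 7844 CPM. These 6 libraries put it at rank 2 by FPKM among all genes. Colitic Tmem173fl/fl colons held 3379, 2364 and 3578 CPM, and colitic Tmem173iΔmye colons 7885, 8285 and 11596 CPM for replicates 1, 2 and 5. All colitic Tmem173fl/fl libraries were below all others, and the 3 other groups overlapped. Lypd8 took 0.78% to 0.966% of all counts in untreated libraries, 0.267% to 0.38% in colitic Tmem173fl/fl and 0.8% to 1.16% in colitic Tmem173iΔmye libraries. The log2 fold change with DSS was -1.54 ± 0.19 (SE) in Tmem173fl/fl and 0.12 ± 0.21 in Tmem173iΔmye mice. The second value was -0.05 without colitic replicate 5. Between genotypes it was -0.15 ± 0.14 without DSS and 1.57 ± 0.29 with DSS, and without replicate 5 the latter was 1.37.

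Relative to the summed epithelial markers, Lypd8 stood at 0.612 ± 0.0313 in untreated Tmem173fl/fl, 0.552 ± 0.0765 in untreated Tmem173iΔmye, 0.461 ± 0.0365 in colitic Tmem173fl/fl and 0.783 ± 0.151 in colitic Tmem173iΔmye libraries (SD, n = 3). The ratios of the colitic genotypes, 0.42 to 0.49 and 0.66 to 0.951, did not overlap. The part of the epithelial share in the level of Lypd8 was not tested. By the mean absolute difference of centred log2 CPM over the 12 libraries and 14557 genes, the profiles closest to Lypd8 were those of Plac8 and Rhbdl2 at 0.14 and BC016579 at 0.15, where the median gene was at 0.6.

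Dmbt1 (ENSMUSG00000047517, chr7:131032053-131121630, plus strand) moved opposite to Lypd8 in Tmem173fl/fl mice. Its untreated levels were 2589, 6229 and 4215 CPM in Tmem173fl/fl and 5595, 4513 and 4372 CPM in Tmem173iΔmye colons. With DSS they were 8932, 6211 and 9686 CPM, and 11015, 15173 and 9394 CPM for replicates 1, 2 and 5. The Tmem173fl/fl groups overlapped by a single pair, 6211 against 6229 CPM, and the Tmem173iΔmye groups did not overlap. Under DSS, Dmbt1 rose in the Tmem173fl/fl genotype by a log2 fold change of 1.0 ± 0.29 (SE, edgeR adjusted p 0.02302), a value just past the limit of 1 that counts as a call. This call was lost under 5 other settings, among them DESeq2 at 0.99, and without replicate 1 or 3 of either Tmem173fl/fl group, at 0.74 without untreated replicate 1. In the Tmem173iΔmye genotype Dmbt1 rose by 1.29 ± 0.23 (edgeR adjusted p 0.0209), a call lost with limma and without any 1 of untreated replicates 1, 2 and 3 or colitic replicate 1, while the log2 fold change stayed between 1.09 and 1.46 when 1 library was left out. Per unit of the epithelial markers, Dmbt1 went from 0.284 ± 0.118 to 1.22 ± 0.0805 in Tmem173fl/fl and from 0.315 ± 0.0711 to 1.0 ± 0.22 in Tmem173iΔmye libraries (SD, n = 3), without overlap in either genotype. The genotypes differed by 0.16 ± 0.24 without DSS (edgeR adjusted p 1, 95% interval -0.36 to 0.68) and 0.51 ± 0.29 with DSS (edgeR adjusted p 0.3727, 95% interval -0.16 to 1.18). The closest profiles were Tifa at 0.25 and Arntl2 and Als2cl at 0.27, against a median of 0.69.

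Mptx1 (ENSMUSG00000026531) had the widest range of the 7 genes. Its untreated levels were 1376, 188 and 481 CPM in Tmem173fl/fl and 1710, 101 and 293 CPM in Tmem173iΔmye colons, so the highest library of a group was 7.3 and 17.0 times the lowest. Replicate 1 was highest in both genotypes. Colitic Tmem173fl/fl libraries held 6, 9 and 0 reads of the gene, that is 0.325, 0.426 and 0 CPM, and a count of 0 there allows up to 0.204 CPM (counting error only). Colitic Tmem173iΔmye libraries held 111, 32 and 2326 reads, or 7.91, 1.99 and 141 CPM for replicates 1, 2 and 5. The group means put colitic Tmem173fl/fl colons 2720-fold below untreated ones, and 95% limits of that ratio, which cover counting error only, were 1430 and 4210. The log2 fold change with DSS was -11.19 ± 0.98 (SE) in Tmem173fl/fl and -3.8 ± 1.41 in Tmem173iΔmye mice. The first of these was -10.16 without untreated replicate 1 and -11.79 without colitic replicate 2. Every colitic Tmem173iΔmye library was above every colitic Tmem173fl/fl library, with a log2 fold change of 7.51 ± 1.72. Replicate 5 alone set much of that size, and without it the difference was 4.17 and the DSS effect in Tmem173iΔmye mice was -7.12. That DSS effect was -1.96 ± 1.29 without untreated Tmem173iΔmye replicate 1. The genotypes overlapped without DSS, at 0.05 ± 0.78.

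Replicate 5 of the colitic Tmem173iΔmye group also held more of the 6 distal Hox genes, at a summed 481 CPM against 90.2 and 101 CPM in the other 2 libraries of the group. In the untreated groups the Hox sum ran from 226 to 382 CPM in Tmem173fl/fl and 187 to 413 CPM in Tmem173iΔmye, and in colitic Tmem173fl/fl from 35.4 to 54 CPM. Hoxb13, a marker of the distal colon, had the profile closest to Mptx1, at 1.75 where the median gene was at 4.19, followed by Trpv6 and 5033404E19Rik at 1.84. The Hox sums of the colitic genotypes did not overlap. The part of the sampled position along the colon in the values of Mptx1 and the rest of the 7 genes was not tested. Pancreatic enzymes, a sign of adjoining tissue, summed to 10239, 5329 and 683 CPM in the colitic Tmem173fl/fl libraries and to 12962, 142 and 225 CPM in replicates 1, 2 and 5 of the colitic Tmem173iΔmye group. Untreated libraries held 107 to 4362 CPM of them in Tmem173fl/fl and 127 to 2351 CPM in Tmem173iΔmye colons. The part of this tissue in the values of the 7 genes was not tested.

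Mptx2 (ENSMUSG00000079180) was at the floor in every library. The 12 libraries held 13 reads of Mptx2 together, at most 4 in 1 library, against 65844 reads of Mptx1, and 6 libraries held 0. It passed the low-value filter through 4 libraries, no comparison called it (edgeR adjusted p 0.4493 to 1), and no fold change is given for it. The copies share long runs of identical bases, so reads from those runs may be counted for either or left out. Mptx2 was not detectable above 3 reads except in 1 untreated Tmem173iΔmye library. Paneth cells, where Mptx2 is known to be made, were little represented. Of 10 Paneth genes, alpha-defensins mostly, 8 had 3 or fewer reads in every group. The part of these cells in the Mptx2 level was not tested.

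Pla2g2a (ENSMUSG00000058908, chr4:138831857-138835186, plus strand) ran from 0.154 FPKM in a colitic Tmem173fl/fl library to 33.5 FPKM in replicate 5 of the colitic Tmem173iΔmye group. Untreated levels were 7.27, 3.38 and 6.01 CPM in Tmem173fl/fl and 10.7, 3.83 and 2.95 CPM in Tmem173iΔmye colons. Colitic Tmem173fl/fl libraries held 7, 3 and 10 reads, or 0.379, 0.142 and 0.681 CPM. Colitic Tmem173iΔmye libraries held 151, 109 and 525 reads, or 10.8, 6.78 and 31.9 CPM for replicates 1, 2 and 5. All colitic Tmem173fl/fl values lay below all other libraries. The log2 fold change with DSS was -3.77 ± 0.52 (SE) in Tmem173fl/fl and 1.5 ± 0.61 in Tmem173iΔmye mice, where the groups overlapped. The second value was 0.62 ± 0.49 without colitic replicate 5 and 2.28 ± 0.66 without untreated replicate 1. Between the genotypes it was 0.07 ± 0.43 without DSS and 5.4 ± 0.76 with DSS, and without replicate 5 the latter was 4.49. Gsdmcl2 at 0.6, Ces2f at 0.61 and Gm11430 at 0.62 had the closest profiles, against a median of 1.53.

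Itln1 (ENSMUSG00000038209, chr1:171518122-171535294, minus strand) was at 2.58, 0.948 and 0.939 CPM in untreated Tmem173fl/fl and 10.9, 0.539 and 0.421 CPM in untreated Tmem173iΔmye colons. Colitic Tmem173fl/fl libraries held 2, 1 and 3 reads, or 0.108, 0.0473 and 0.204 CPM, which was below every untreated library of that genotype. Colitic Tmem173iΔmye libraries lay at 0.499, 0.622 and 0.425 CPM, within the range of their controls. In colitic Tmem173fl/fl mice Itln1 fell by 3.55 ± 0.71 on the log2 scale (SE, edgeR adjusted p 0.00317), or 12.4-fold with 95% counting limits of 5.63 and 36.6. That change was -2.91 without untreated replicate 1, -4.1 without colitic replicate 3 and -2.64 with limma, and the call was kept in each. In Tmem173iΔmye mice the change of -2.93 ± 1.1 missed the threshold (edgeR adjusted p 0.2283, 95% interval -5.36 to -0.49) and rested on untreated replicate 1, without which it was 0.10. With no filter on low values the same change passed (edgeR adjusted p 0.03653). The colitic genotypes did not overlap, and their difference of 2.09 ± 0.73 missed the threshold (edgeR adjusted p 0.1585). The genotype difference without DSS was 1.43 ± 0.92 (edgeR adjusted p 1), and it was -1.59 without untreated Tmem173iΔmye replicate 1. Pla2g3, Ckmt1 and Gm12506 had the closest profiles, each at 0.62 with a median gene at 1.12.

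Ang4 (ENSMUSG00000060615, chr14:51763878-51773590, minus strand) fell with DSS in both genotypes. Untreated levels were 142, 43 and 33.6 CPM in Tmem173fl/fl and 549, 10.5 and 16.3 CPM in Tmem173iΔmye colons. With DSS they were 1.25, 0.379 and 3.34 CPM, and 0.499, 1.93 and 0 CPM for replicates 1, 2 and 5, where the count of 0 allows up to 0.182 CPM. Neither genotype had an overlap between untreated and colitic libraries, and the colitic genotypes overlapped each other. In Tmem173fl/fl mice Ang4 fell by 5.46 ± 0.74 on the log2 scale (SE, edgeR adjusted p 0.0003443), 44-fold by the group means with 95% limits of 37.6 and 59.4 that cover counting error only. That change was -4.52 without untreated replicate 1 and -6.46 without colitic replicate 3, and the call was kept in both. In Tmem173iΔmye mice it fell by 7.87 ± 1.7 (edgeR adjusted p 0.04377), 237-fold by the group means. Untreated replicate 1 set much of that size, and without it the change was -4.04 (edgeR adjusted p 0.1734). The call was also lost without any 1 of untreated replicates 2 and 3 and colitic replicates 1 and 2, at edgeR adjusted p 0.08928 to 0.1554 with log2 fold changes of -9.62 to -7.63, and with limma at -6.7. The colitic genotypes differed by -1.02 ± 1.1 (edgeR adjusted p 0.6469, 95% interval -3.52 to 1.49). Without DSS the difference was 1.4 ± 1.04 (edgeR adjusted p 1), and it was -2.42 without untreated Tmem173iΔmye replicate 1. Ly6g6c at 1.65 and Mettl7a2 and Nox1 at 1.68 lay closest to Ang4, against a median of 2.92.

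**Figure D2:**
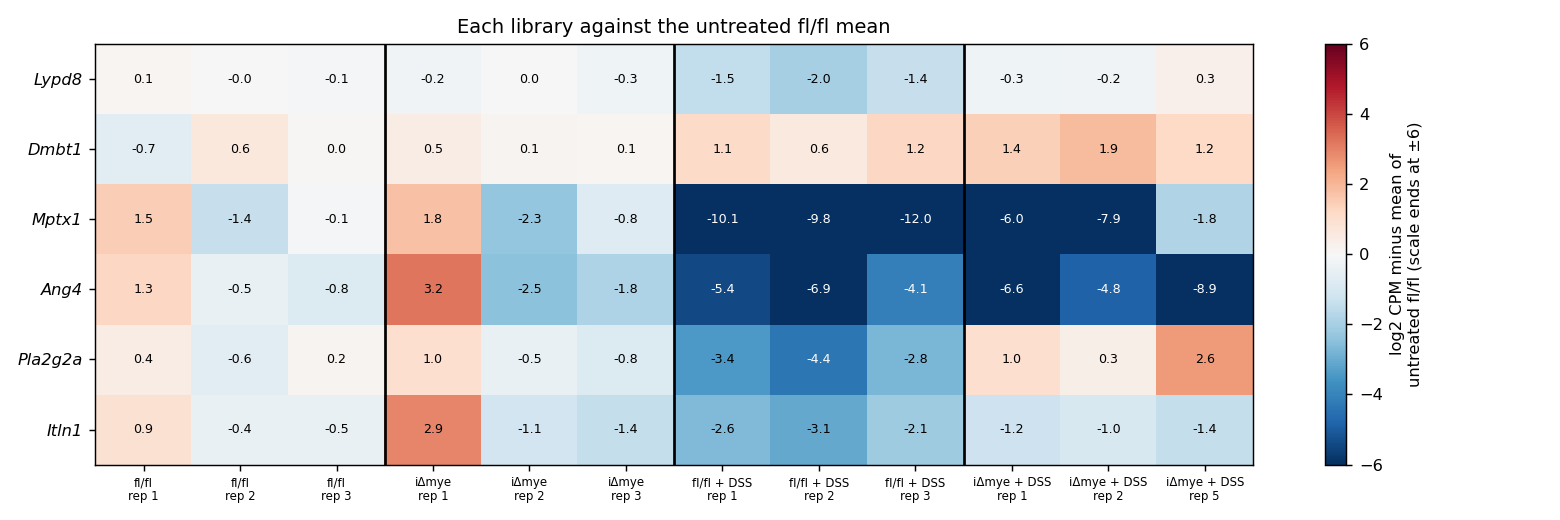
Log2 CPM of 6 of the genes in each library minus the mean of the untreated Tmem173fl/fl libraries (columns are libraries, rows are genes, colour scale ends at -6 and 6, Mptx2 left out). Mptx1, Ang4, Pla2g2a and Itln1 were highest in replicate 1 of both untreated groups, and in replicate 5 of the colitic Tmem173iΔmye group Mptx1 and Pla2g2a were highest while Ang4 was lowest.

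The genes varied together within groups in part. Mptx1, Ang4, Pla2g2a and Itln1 were each highest in replicate 1 of both untreated groups, whereas Lypd8 was highest in replicate 1 of the Tmem173fl/fl and replicate 2 of the Tmem173iΔmye group. The heat map of libraries shows this for each row. In colitic Tmem173fl/fl mice, Lypd8, Pla2g2a, Itln1, Dmbt1 and Ang4 shared 1 order, with replicate 3 highest and replicate 2 lowest, and the epithelial marker sum had the same order, at 8518, 6894 and 5005 CPM for replicates 3, 1 and 2. This order rests on 7, 3 and 10 reads of Pla2g2a and 2, 1 and 3 reads of Itln1 in replicates 1, 2 and 3. Mptx1, with 0 to 9 reads in these libraries, did not share it. In colitic Tmem173iΔmye mice, replicate 5 was highest for Lypd8, Mptx1 and Pla2g2a and lowest for Dmbt1 and Ang4. Itln1 had 7, 10 and 7 reads in replicates 1, 2 and 5, which set no order between replicates 1 and 5. The part of the epithelial share in these orders was not tested.

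Among Itln1, Dmbt1, Ang4 and Mptx2, the 4 genes not picked for their change, 1 was called higher and 2 lower with DSS in Tmem173fl/fl mice, where 22.5% of the 24102 genes tested were called, 14.9% higher and 7.61% lower. In the Tmem173iΔmye genotype, 1 passed upward and 1 downward, where 2.08% of all genes were called, 1.48% higher and 0.597% lower. None of the 4 was called between genotypes without DSS, where edgeR called 0 of 24102 genes (percent called 0), 720 genes had an unadjusted p under 0.05, and DESeq2 and limma called 3 genes each. Between colitic genotypes none was called, where 2.81% of all genes passed, 0.822% higher and 1.99% lower in Tmem173iΔmye mice. The difference of the DSS effects between genotypes was tested in 1 fit of 12 libraries, and it called none of the 4 and 2.55% of all genes, 0.934% higher and 1.61% lower. It was 0.70 ± 1.52 for Itln1, 0.37 ± 0.41 for Dmbt1 and -2.35 ± 1.97 for Ang4 on the log2 scale (SE, edgeR adjusted p 0.8576, 0.6858 and 0.5698). Without untreated Tmem173iΔmye replicate 1 the difference was 3.72 for Itln1 and 1.48 for Ang4 (edgeR adjusted p 0.07509 and 0.6202). For Dmbt1 it ran from 0.015 to 0.63 with 1 library left out. For the genes chosen for their change it was 1.73 ± 0.29 for Lypd8, 7.46 ± 2.12 for Mptx1 and 5.34 ± 0.96 for Pla2g2a, given with no test. Without colitic Tmem173iΔmye replicate 5 these were 1.51, 4.11 and 4.43.

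**Figure D3:**
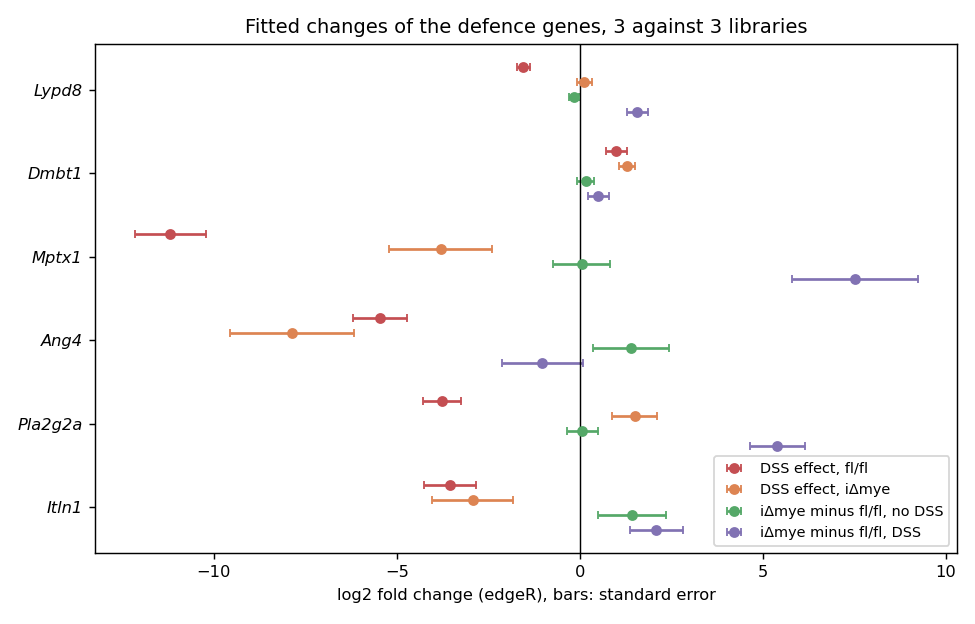
Log2 fold changes from edgeR with standard errors (horizontal bars) for 6 genes, 3 libraries against 3, with DSS in either genotype and between genotypes without and with DSS. With DSS in Tmem173fl/fl mice 5 of the 6 lie below 0 and Dmbt1 lies at 1.0, and the genotype differences without DSS lie between -0.15 and 1.43.

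Other epithelial and mucosal defence genes were read beside them as a list of 47 genes, of which 46 were in the table and 38 were tested. In Tmem173fl/fl mice, 14 rose and 10 fell with DSS, where 14.9% of all genes tested were called higher and 7.61% lower. The median log2 fold change of the 38 was -0.25, against 0.03 over all genes tested. The largest rises among those named by rule were Saa3, an acute-phase protein, from 3.76 ± 2.39 to 1267 ± 609 CPM (SD, n = 3), and Lcn2, which binds bacterial siderophores, from 2.31 ± 0.228 to 767 ± 307 CPM (log2 fold changes 8.48 and 8.44, edgeR adjusted p 4.393e-06 and 7.05e-07). The C-type lectins Reg3b, Reg3g and Reg3a rose by 8.37, 6.93 and 6.85 (edgeR adjusted p 0.000136, 8.127e-06 and 0.00143). Ngp, a neutrophil granule protein, rose by 7.58 (edgeR adjusted p 2.379e-05). The summed CPM of 13 neutrophil markers rose from 48.9 to 109 in untreated to 591 to 978 in colitic Tmem173fl/fl libraries, and its part in these changes was not tested.

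In Tmem173iΔmye mice 8 of the 38 rose with DSS and none fell, where 1.48% of all genes were called higher and 0.597% lower. The median was 1.17, against 0.02 over all genes. The number called was 5 to 15 with 1 library left out, 15 with no filter and 2 with limma. Nos2, the inducible nitric oxide synthase, rose by 4.61 ± 0.43 (edgeR adjusted p 0.0007694), Ltf, the iron-binding lactoferrin, by 4.42 ± 0.48 (0.00212 by the same test), and Lcn2, Saa3, Chil3 and Lbp by 4.28, 3.67, 3.36 and 3.09. Reg3b was at 938 ± 905 CPM in the colitic Tmem173iΔmye group, with 0.425 CPM in its lowest library and 1806 CPM in its highest, and was not called there. Between colitic genotypes 4 of the 38 were higher and 4 lower in Tmem173iΔmye mice, where 0.822% and 1.99% of all genes were. Without DSS 0 were called, as over all genes. Clca1, a goblet cell secretory protein, was higher at 2009 ± 748 against 401 ± 173 CPM (log2 fold change 2.32 ± 0.41, edgeR adjusted p 0.02784), as were Sprr2a2 and Sprr2a1, antibacterial small proline-rich proteins, by 2.31 and 2.1. Ngp, Saa3 and Lcn2 were lower by log2 fold changes of -4.96, -3.7 and -3.65. The number called, 8 here, varied with the setting and with single libraries. DESeq2 called 19, and edgeR called 18 with no filter and 19 in 1 fit of 12 libraries. Without colitic Tmem173fl/fl replicate 1 or 3 or colitic Tmem173iΔmye replicate 2, edgeR called 1. It called 2 without colitic Tmem173fl/fl replicate 2, and 10 and 9 without colitic Tmem173iΔmye replicates 1 and 5. Limma called 0 of the 38. In the simulation for this comparison limma also called 0% of the 200 genes changed by a log2 fold change of 2. Over all genes of the real data it called 71 here. The simulation held no larger changes, so it cannot decide what the 0 of 38 means for them. The neutrophil marker sum ran from 236 to 362 CPM in colitic Tmem173iΔmye libraries, below the colitic Tmem173fl/fl range.

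**Figure D4:**
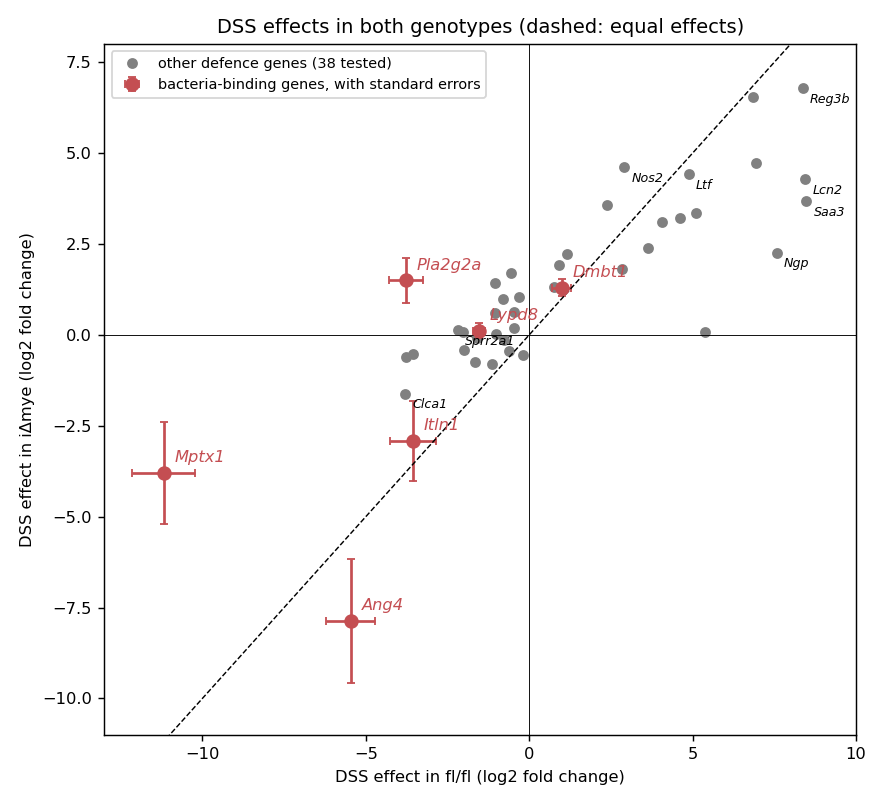
Log2 fold change with DSS in Tmem173fl/fl (horizontal axis) against Tmem173iΔmye mice (vertical axis) for 38 other defence genes (grey) and 6 of the bacteria-binding genes (red, with standard errors). The dashed line marks equal effects. Pla2g2a lies at -3.77 and 1.5, Mptx1 at -11.19 and -3.8, and Dmbt1 near the line at 1.0 and 1.29.

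The relatives of the 7 genes, other pentraxins, secreted phospholipases, angiogenin-type ribonucleases, Ly6/uPAR-domain genes and scavenger receptor cysteine-rich genes, made a list of 34 with 31 in the table and 23 tested. In Tmem173fl/fl mice 6 rose and 4 fell with DSS, against 14.9% and 7.61% of all genes tested. With DSS in the Tmem173iΔmye genotype 1 rose, against 1.48% of all genes. Between colitic genotypes 3 were higher and 4 lower in Tmem173iΔmye colons, against 0.822% and 1.99% of all genes. No range with 1 library left out is given for these counts. The pentraxin Ptx3 went from 0.146 ± 0.253 to 48.2 ± 34 CPM (SD, n = 3) in Tmem173fl/fl mice, a rise of 8.25 ± 0.87 in log2 (SE, edgeR adjusted p 6.884e-05), and the rise in Tmem173iΔmye mice was 3.98 ± 0.77 (edgeR adjusted p 0.02713). Mptx1, of the same family, lay lower in colitic than untreated Tmem173fl/fl libraries. The phospholipases Pla2g2f, Pla2g3, Pla2g5 and Pla2g10 fell in Tmem173fl/fl mice, with log2 fold changes of -3.23, -2.87, -1.11 and -2.22. Pla2g2f went from 35 ± 3.95 to 3.61 ± 2.5 CPM there, and in Tmem173iΔmye mice it was at 40 ± 11.1 and 30.3 ± 16.9 CPM. Pla2g2f, Pla2g10 and Pla2g5 were higher in colitic Tmem173iΔmye than colitic Tmem173fl/fl mice by log2 fold changes of 3.07, 1.67 and 1.45 (edgeR adjusted p 0.03708, 0.03323 and 0.01809). The 4 lower ones were Nptx2, Ptx3, Cd163 and Ssc5d, with log2 fold changes of -3.59, -3.22, -2.0 and -1.38.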

How the data were processed

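Total colon RNA of mice was analysed in 12 libraries, 3 in each of 4 groups. The sample labels give the genotype as WT or CRE, which was read as Tmem173fl/fl and Tmem173iΔmye from the series design and the study's methods, and they do not state that each library is a separate animal. The authors trimmed reads with fastp, aligned them with HISAT2 2.0.5 to GRCm38 and counted them with featureCounts 1.5.0-p3 (names and versions from the submitters' processing notes, which also list CASAVA 1.8 and DESeq2 1.20.0). Raw counts per gene and FPKM for each library are deposited, and the deposited columns with the authors' own fold changes and p-values were not used.

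From the counts, edgeR 4.0.16 (R 4.3.3) gave quasi-likelihood tests with TMM scaling for the 24102 genes that reached 0.1 FPKM in 3 or more libraries. Calls needed both a p under 0.05 after Benjamini-Hochberg adjustment over all of these and a log2 fold change of 1 or more in size. Each comparison was fitted on its own groups, and the difference of DSS effects on all 12 libraries. The standard error of a log2 fold change is its size over the square root of the F statistic, and 95% intervals use the t distribution with the degrees of freedom of the fit and are not adjusted. Counting limits of ratios are 95% exact and cover counting error only. Alternatives were RLE scaling, no filter, DESeq2 1.42.0, limma 3.58.1 on log2(FPKM + 0.1), 1 fit of all libraries, the replicate number as a block, an adjusted p alone, and leaving out each library.

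On simulated counts of 24102 genes for the genotype effect with DSS, with 200 genes changed by a log2 fold change of 2, edgeR called 79% of those, DESeq2 89.5% and limma 0%, with 22, 48 and 5 false calls.

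The 7 genes and the gene lists were chosen with earlier results of these data known. The named genes are these 7, the 3 genes with the closest profile to each among genes with mean FPKM of at least 1, Tmem173, and up to 6 called genes per comparison from the lists of other defence genes and relatives, by fold change, where the mean FPKM was at least 1. Marker lists covered epithelium, colonocytes, goblet cells, Paneth cells, small intestine, distal Hox genes, pancreas, neutrophils and sex. The p-values measure the spread between these libraries only, which may be technical. Promoter windows are the 250 bases before the starts in the RefSeq table for GRCm38.p6, and coordinates of genes are GRCm38 as deposited. No protein sequences were used here.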

Additional observations from a re-analysis of the deposited data

Results flagged for a closer look

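Some effects of DSS that differed between genotypes, by direction or by test, are listed here with values and no explanation. For Pla2g2a every colitic Tmem173fl/fl library lay below and every colitic Tmem173iΔmye library above its own untreated mean, a difference of 4.91 between the DSS effects by group means of log2 CPM, whose prior count of 2 damps low values. The edgeR fit gave 5.34, and 4.43 without colitic replicate 5. The difference was not tested because the gene was chosen partly for its change. Lypd8 and Mptx1, also chosen for their change, differed by 1.73 and 7.46 in the same fit, without such opposite directions in every library. The other differences come from the edgeR test of the difference of the DSS effects over all 12 libraries, Tmem173iΔmye minus Tmem173fl/fl. That test called 2.55% of all genes and 5 of the other defence genes. The 5 became 2 to 9 with 1 library left out, 3 without colitic Tmem173iΔmye replicate 5 and 2 with limma. Among other defence genes the differences were -4.73 for Saa3, -4.09 for Lcn2, 2.37 for Sprr2a1, 2.17 for Sprr2a2 and 1.59 for Pigr, which carries immunoglobulins across the epithelium (edgeR adjusted p 0.01998, 0.01338, 0.03572, 0.03327 and 0.02647). Among relatives they were -4.44 for Nptx2, 2.9 for Pla2g2f, -2.69 for Cd163, a macrophage scavenger receptor, 1.65 for Pla2g10 and 1.55 for Pla2g5 (edgeR adjusted p 0.009294, 0.03634, 0.0167, 0.03106 and 0.03608). Pigr was at 4457 ± 121 CPM in untreated and 1392 ± 202 CPM in colitic Tmem173fl/fl colons, and at 3872 ± 533 and 3644 ± 1289 CPM in Tmem173iΔmye colons (SD, n = 3).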

How the results depend on the processing

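Counts of called genes depended on single libraries and on the tool, and 3 libraries a group limit what can be said of Itln1, Mptx2 and Pla2g2a at a few reads. With DSS in Tmem173fl/fl mice 5422 genes were called, 8544 by an adjusted p alone, and 4761 to 5568 when 1 library was left out, with 23 to 25 of the other defence genes. With DSS in Tmem173iΔmye mice 501 were called, against 1013 with no filter, 1137 with DESeq2, 41 with limma, 981 in 1 fit of 12 libraries and 51 to 1469 when 1 library was left out (lowest without untreated replicate 2, highest without colitic replicate 5). The other defence genes called there were 8, against 15 with no filter, 2 with limma and 5 to 15 with 1 library left out. Without DSS the genotypes gave 68 genes with no filter, 3 with DESeq2, 3 with limma and 0 to 6 with 1 library left out, and 2 of the other defence genes with no filter. With DSS the genotypes gave 678 genes, against 1257 with no filter, 1619 with DESeq2, 71 with limma, 1492 in 1 fit and 27 to 1593 with 1 library left out (lowest without Tmem173fl/fl replicate 1, highest without Tmem173iΔmye replicate 1). Of the other defence genes, 8 were called there, against 18 with no filter, 19 with DESeq2, 0 with limma, 19 in 1 fit and 1 to 10 with 1 library left out. The difference of DSS effects gave 614 genes, 1228 with no filter, 1364 with DESeq2, 368 with limma and 267 to 1728 with 1 library left out, and 5 other defence genes, 14 with no filter, 10 with DESeq2, 2 with limma and 2 to 9 with 1 library left out. The cause of these shifts was not tested.

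Among the members, values that changed sign in at least 1 alternative were those of Lypd8 with DSS in Tmem173iΔmye mice (0.12, and -0.05 without colitic replicate 5), of Mptx1 and Pla2g2a between untreated genotypes (0.05 and 0.07, from -1.77 to 1.07 and -0.70 to 0.40 with 1 library left out, and -0.43 and -0.09 with limma), of Itln1 with DSS in Tmem173iΔmye mice (-3.44 to 0.10 with 1 library left out), of Itln1, Dmbt1 and Ang4 between untreated genotypes (-1.59 to 2.06, -0.11 to 0.51 and -2.42 to 2.33, and -0.36 for Ang4 with limma), of Ang4 between colitic genotypes (-2.72 to 0.00047), and of its difference of DSS effects (-4.12 to 1.48). None of those that carry a test was called in the reported fit, Itln1 with DSS in Tmem173iΔmye mice was called with no filter on low values, and the cause was not tested. DESeq2 gave no adjusted p for Itln1 or Ang4 with DSS in Tmem173iΔmye mice, between untreated genotypes or for the difference of DSS effects, nor for Itln1 between colitic genotypes. Itln1 and Ang4 kept their call with DSS in Tmem173fl/fl mice under each alternative run.

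The labels do not say whether replicate numbers pair the samples, and with 3 libraries a group the correlations cannot settle it. Libraries with the same number correlated in their deviations from the group means at -0.0978, -0.136 and -0.188 between untreated and colitic Tmem173fl/fl. Between untreated genotypes the values were 0.204, -0.212 and 0.00144, and libraries with different numbers ran from -0.433 to 0.393. For numbers 1 and 2 they were -0.187 and 0.00985 between untreated and colitic Tmem173iΔmye, and 0.221 and -0.163 between colitic genotypes. Those comparisons share only these numbers. Between untreated genotypes a block moved the standard error from 0.78 to 0.19 for Mptx1, 1.04 to 0.24 for Ang4 and 0.14 to 0.16 for Lypd8. With the replicate number as a block the counts were 4939 with DSS in Tmem173fl/fl, 1298 in Tmem173iΔmye, 94 and 101 between genotypes without and with DSS, and 590 for the difference of DSS effects, with 25, 17, 3, 3 and 6 other defence genes. In the block Ang4 was at -0.42 between untreated and 0.55 between colitic genotypes, Mptx1 at -0.43 and Pla2g2a at -0.07 between untreated genotypes. With DSS in Tmem173iΔmye mice the block put Lypd8 at -0.10, Mptx1 at -6.72 and Pla2g2a at 0.44, and it put Mptx1 at 3.39 between colitic genotypes. These fits, with their counts of 1298 and 101, used only replicate numbers found in both groups. They left out colitic Tmem173iΔmye replicate 5 and replicate 3 of the other group. Without replicate 5 alone and with no block, the values were -0.05, -7.12 and 0.62, and 4.17 between colitic genotypes. The block and the libraries left out cannot be told apart there.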

Other observations

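Genes of named cell types were counted in the same fits, where 22.5% of all genes tested were called with DSS in Tmem173fl/fl mice, 2.08% in Tmem173iΔmye mice and 2.81% between colitic genotypes. Of 12 colonocyte genes, 8 fell and 1 rose with DSS in Tmem173fl/fl mice, 1 fell in Tmem173iΔmye mice, and 5 were higher in colitic Tmem173iΔmye than colitic Tmem173fl/fl colons. Of 12 goblet cell genes, DSS lowered 7 in the Tmem173fl/fl genotype and none was called in Tmem173iΔmye mice. Of the 12 general epithelial markers, 6 fell in colitic Tmem173fl/fl mice, and 1 was higher in the colitic Tmem173iΔmye than in the colitic Tmem173fl/fl group. All 13 neutrophil genes rose with DSS in Tmem173fl/fl mice and 7 in Tmem173iΔmye mice, and 8 were lower in the colitic Tmem173iΔmye group. Of 10 small intestinal genes, 8 were tested, of which 3 rose and 2 fell with DSS in Tmem173fl/fl mice. The 12 pancreatic genes all had positive log2 fold changes with DSS in both genotypes, with medians of 1.86 in Tmem173fl/fl and 2.59 in Tmem173iΔmye mice, and none was called in the 4 comparisons of groups.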
